A study of Mus musculus with 18 samples.

Results

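The genes that cut proteins into peptides and load the peptides onto MHC class I molecules were followed in the lacrimal gland (LG) of 2 mouse strains at 3 ages. The 10 genes were taken by name from the count table, which holds 54232 genes: Psmb8, Psmb9 and Psmb10, the inducible catalytic subunits of the proteasome; Psme1 and Psme2, the 2 subunits of the PA28 activator; Tap1 and Tap2, the partners of the peptide transporter; Tapbp, which encodes tapasin; Nlrc5, a regulator of class I transcription; and B2m, which encodes beta-2 microglobulin. All 10 were found and all 10 passed the filter on low counts in every comparison. The choice went by name and function, with earlier results of these data known.

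Whole LGs of male BALB/c (BALB/cJ) and NOD.H-2b (NOD.B10Sn-H2b/J) mice were sequenced as rRNA-depleted bulk RNA when aged 2 months (2M), 4 months (4M) or 6 months (6M), with 3 mice in each of the 6 groups. The labels name no transgene or treatment. NOD.H-2b is a model of Sjögren's syndrome with an NOD background and the H2b haplotype of C57BL/10SnJ at the MHC (H2) region of chromosome 17, whereas BALB/c carries H2d. BALB/c was the control strain, so the effect of the disease and the effect of the strain cannot be told apart here. GRCm38, the genome to which the reads were aligned, comes from C57BL/6J, which carries H2b. Counts per mouse summed to between 49480781 and 103936830, and BALB/c mouse 1 at 6M was the deepest. Values are given as CPM, the read count scaled for library size with TMM factors over the 18 mice, and mice are named by replicate number.

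As background, every cell degrades proteins with the proteasome, a barrel whose cutting sites are formed by Psmb5, Psmb6 and Psmb7. In leukocytes, and in other cells under interferon gamma, these are exchanged for Psmb8, Psmb9 and Psmb10 to give the immunoproteasome, while the PA28 ring opens the barrel ends. TAP carries the peptides into the endoplasmic reticulum, tapasin holds TAP next to empty class I molecules, and B2m is the light chain that every class I molecule needs to reach the surface. Nlrc5 binds no DNA by itself and joins a complex on class I promoters.

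Of the 10 genes, 5 lie inside or next to the H2 region (GRCm38, GENCODE M21). Psmb9 occupies chr17:34181987-34187764 on the minus strand, and Tap1 follows on the plus strand at chr17:34187553-34197225, Psmb8 at chr17:34197721-34201454 and Tap2 at chr17:34203527-34216321. Tapbp stands apart from them at chr17:33915899-33929292, 66.7 kb from H2-K1. The other 5 are Nlrc5 (chr8:94434356-94527272) and Psmb10 (chr8:105935735-105938444), Psme1 (chr14:55578123-55581529) and Psme2 (chr14:55587441-55591113), and B2m (chr2:122147686-122153083). Psmb9 and Tap1 run away from each other and their RefSeq start sites are 225 bases apart, and their annotated exons share 212 bases on opposite strands. Psmb8, Tap2, Tapbp and Nlrc5 also share exonic bases with antisense or noncoding genes, up to 904 bases for Tapbp with Gm19412. With protein-coding genes, Psme1 shares 14 bases with Emc9 on the opposite strand, and Tapbp 149 with Zbtb22 on the same strand. Because the strand setting of the counting is not given, reads in bases shared on opposite strands cannot be told apart. In the bases shared with Zbtb22 no strand setting could tell them apart.

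RefSeq promoter windows, from 250 bases before to 50 bases after a start site (GRCm38.p6), matched 8 of the 10 genes by symbol (none for Tap2 and Nlrc5). They were searched on both strands for the interferon-stimulated response element, the gamma-activated site (TTCNNNGAA), the CCAAT box (CCAAT), the core of the cyclic AMP response element (TGACG) and the NF-kB motif. The B2m promoter held 4 of these motifs within a short stretch and is shown for that reason. It is the stretch chr2:122147537-122147685 on the plus strand, 149 bases that end at the annotated first exon, and capitals mark, from left to right and with no overlap, the interferon-stimulated element, the NF-kB match, the TGACG core and the CCAAT box in reverse.
B2m promoter: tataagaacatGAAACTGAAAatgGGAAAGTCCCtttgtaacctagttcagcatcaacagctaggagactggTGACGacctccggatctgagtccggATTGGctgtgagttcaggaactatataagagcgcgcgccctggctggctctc
A TGACG-like box followed by a reversed CCAAT box is the layout of the module through which the Nlrc5 complex is known to act on class I promoters. The interferon-stimulated element was matched in 2 of the 8 genes, B2m and Psme1, and in 3.44% of all 32851 windows. The gamma-activated site was matched in Psmb8, as TTCCCAGAA at base -97, and in 8.3% of all windows, and the NF-kB motif in B2m and in 4.51% of all windows. The stretch between Psmb9 and Tap1 held 1 CCAAT box and 1 TGACG, read in both windows, and these letters were present in 37.4% and 20.8% of all windows. These matches describe the letters of the reference genome and not binding.

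The first question was how the 10 genes differed between the strains at each age. All 10 were higher in NOD.H-2b at 2M, 4M and 6M, from 1.95-fold for B2m at 2M to 41.5-fold for Nlrc5 at 6M. Called upregulated at 2-fold or more and an FDR below 0.05 (edgeR's quasi-likelihood test), the members numbered 9 of 10 at 2M, where 12% of the 17200 genes tested were upregulated. At 4M they numbered 10 of 10, against 15.6% of 17722 genes, and at 6M 10 of 10, against 18.8% of 17750 genes. Without the fold threshold all 10 passed at each age, where 22.5%, 23.4% and 28.6% of genes did. The members' median log2 fold change took the values 1.88, 2.00 and 2.65 at the 3 ages in turn, whereas that of all genes tested was 0.01, 0 and -0.004. Each member's lowest NOD.H-2b mouse stood above its highest BALB/c mouse whatever the age, as did 11.2% of 19117 genes. With any 1 mouse left out, or under any other setting tried, the counts at 4M and 6M stayed at 10 and that at 2M at 9 or 10.

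**Figure D1:**
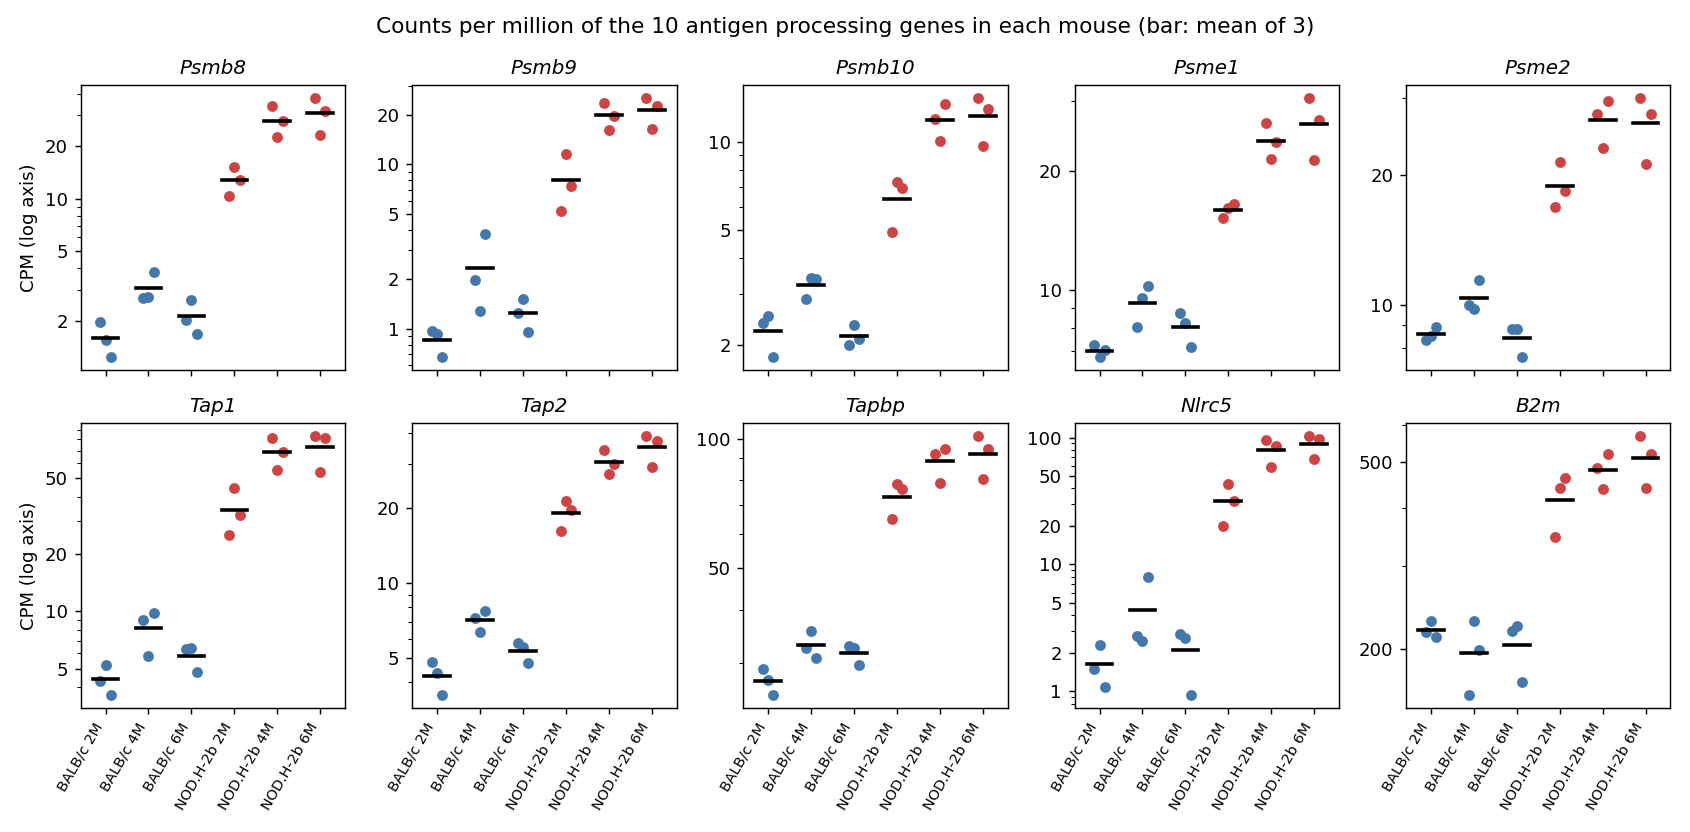
CPM (log axis) of each of the 10 genes in each mouse, with BALB/c in blue and NOD.H-2b in red and a black bar for the mean of 3 mice. No red point reaches down to a blue one in any panel, and the ratio of the lowest NOD.H-2b mouse to the highest BALB/c mouse runs from 1.38 for Psmb9 to 2.7 for Psmb8.

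The inducible catalytic subunits are taken first. Psmb8, which takes the place of Psmb5 and gives the chymotrypsin-like site, stood at 1.97, 1.54 and 1.23 CPM in the BALB/c mice at 2M, at 2.69, 2.72 and 3.82 CPM at 4M and at 2.03, 2.64 and 1.68 CPM at 6M. In NOD.H-2b it stood at 10.3, 15.2 and 12.8 CPM at 2M, at 33.8, 22.6 and 27.7 CPM at 4M and at 37.8, 23.3 and 31.9 CPM at 6M. The strains were far apart at each age, and in NOD.H-2b every mouse of 4M and 6M was above every mouse of 2M. Psmb8 differed between the strains by 8.35-fold at 2M (log2 3.06 ± 0.20 SE, adjusted p = 4.55e-06), 9.09-fold at 4M (3.19 ± 0.20, adjusted p = 1.33e-05) and 15-fold at 6M (3.91 ± 0.22, adjusted p = 2.33e-06).

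Psmb9, which takes the place of Psmb6, was the member with the lowest level per kb of exon in NOD.H-2b at each age. Its BALB/c values were 0.974, 0.933 and 0.67 CPM at 2M, 1.99, 1.28 and 3.77 CPM at 4M and 1.25, 1.51 and 0.959 CPM at 6M. The NOD.H-2b values were 5.2, 11.5 and 7.33 CPM at 2M, 23.5, 16.1 and 19.7 CPM at 4M and 25.3, 16.4 and 22.5 CPM at 6M. BALB/c mouse 3 at 4M was the highest of its strain, and NOD.H-2b mouse 1 at 2M, the lowest of its strain, stood 1.38 times above it. The strain difference was 9.62-fold at 2M (log2 3.27 ± 0.34 SE, adjusted p = 0.000308), 8.34-fold at 4M (3.06 ± 0.41, adjusted p = 0.00245) and 17.6-fold at 6M (4.14 ± 0.21, adjusted p = 6.31e-07).

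Psmb10, on chromosome 8, takes the place of Psmb7, the trypsin-like site. In BALB/c it was at 2.39, 2.51 and 1.82 CPM at 2M, at 2.89, 3.41 and 3.38 CPM at 4M and at 2, 2.34 and 2.1 CPM at 6M. In NOD.H-2b it was at 4.89, 7.29 and 6.95 CPM at 2M, at 12, 10.1 and 13.6 CPM at 4M and at 14.2, 9.66 and 13 CPM at 6M. The groups of the strains did not overlap, and the difference was 2.94-fold at 2M (log2 1.56 ± 0.19 SE, adjusted p = 6.92e-05), 3.69-fold at 4M (1.88 ± 0.15, adjusted p = 1.17e-05) and 5.88-fold at 6M (2.56 ± 0.16, adjusted p = 1.17e-06).

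The constitutive subunits Psmb5, Psmb6 and Psmb7 had estimates below 0 at each age. None passed edgeR's test at 2M or 4M (at an unadjusted p under 0.05, 1 was lower at 2M, Psmb7, with log2 -0.16 ± 0.06 SE and adjusted p = 0.0566, and 0 at 4M), and all 3 were lower at 6M. Psmb6, for one, stood at 28.2, 28.5 and 28.6 CPM in BALB/c at 6M and at 19.9, 20 and 21.1 CPM in NOD.H-2b, with no overlap (log2 -0.45 ± 0.07 SE, adjusted p = 0.000417). At 6M the difference was log2 -0.36 ± 0.13 for Psmb5 (adjusted p = 0.0404) and -0.39 ± 0.07 for Psmb7 (adjusted p = 0.000924).

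The ratio of each inducible subunit to the one it replaces was then compared per mouse, as counts plus 1 per kb. Psmb8 over Psmb5 ran from 0.0392 to 0.0648 in BALB/c at 2M, from 0.0915 to 0.121 at 4M and from 0.0586 to 0.109 at 6M. In NOD.H-2b it ran from 0.36 to 0.592 at 2M, from 0.831 to 1.3 at 4M and from 1.04 to 2.08 at 6M, so that Psmb8 exceeded Psmb5 per kb in each of the 3 oldest NOD.H-2b mice. Averaged over the ages, this ratio was 11.65-fold higher in NOD.H-2b, that of Psmb9 over Psmb6 13.15-fold and that of Psmb10 over Psmb7 4.64-fold. Each of these had p = 0.00025 in a two-sided exact permutation test with strains permuted within ages, the smallest p that 8000 arrangements can give, and an adjusted p of 0.000313 over the 5 ratios. At a single age the exact test of 3 mice against 3 cannot go below p = 0.1, and each of the 3 ratios was at 0.1 at each age. The ratio between genes rests on the length of all annotated exons (3381 bases for Psmb8, 899 for Psmb5), whereas the fold between strains does not.

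Summed per kb, the 3 inducible subunits made up 4.12% to 5.71% of the 6 catalytic subunits' RNA in BALB/c at 2M, 7.86% to 10.1% at 4M and 5.3% to 7.03% at 6M. In NOD.H-2b they made up 18%, 27.5% and 21.5% at 2M, 43.6%, 34% and 36.9% at 4M and 52%, 39.6% and 46.4% at 6M. The lowest NOD.H-2b share was thus above the highest BALB/c share. These percentages rest on the annotated exon lengths, and so does the size of the strain difference in them. At 6M the inducible subunits summed to 1.99 to 2.57 CPM per kb in BALB/c and to 17 to 26.4 in NOD.H-2b, and the constitutive ones to 34 to 35.6 and 24.4 to 26.9.

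**Figure D2:**
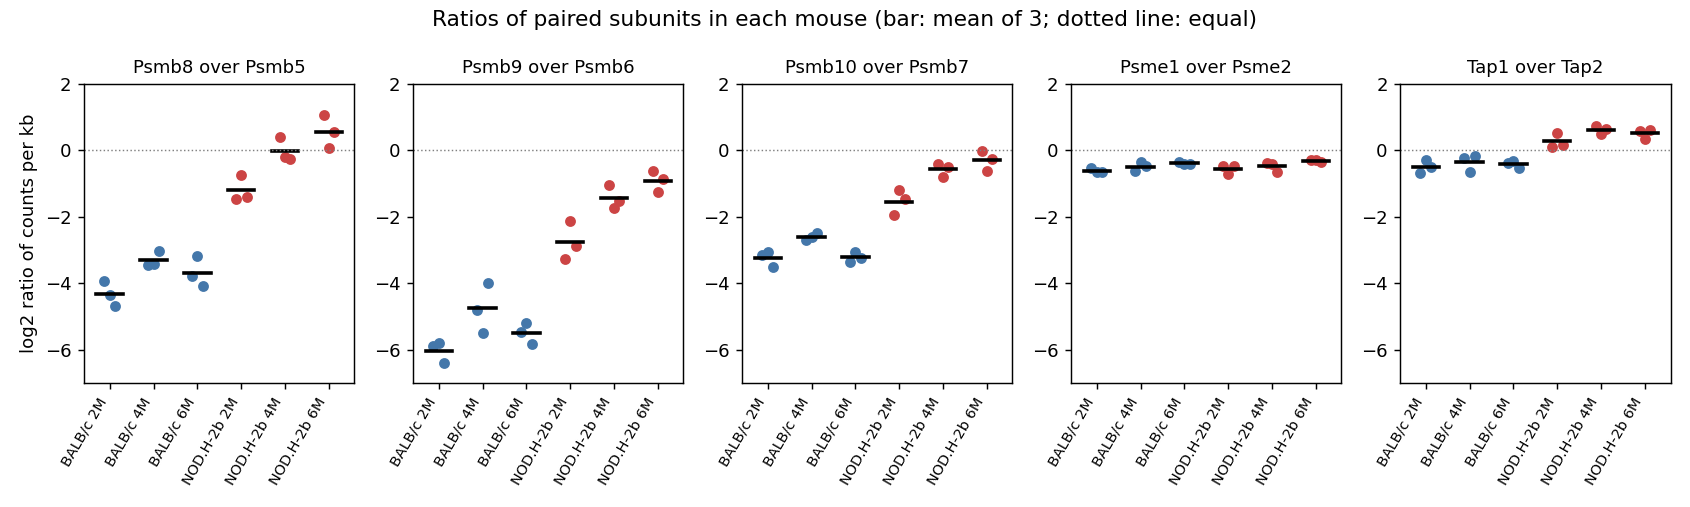
The log2 ratio of counts per kb for 5 pairs of subunits in each mouse, with BALB/c in blue, NOD.H-2b in red and a bar for the mean of 3 mice. The 3 inducible over constitutive ratios and Tap1 over Tap2 separate the strains, whereas Psme1 over Psme2 lies between 0.602 and 0.813 as a plain ratio in all mice.

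Psme1 and Psme2 encode the alpha and beta subunits of PA28 and lie beside each other on chromosome 14. Psme1 ranged from 6.75 to 7.26 CPM in BALB/c at 2M, from 8.07 to 10.2 CPM at 4M and from 7.15 to 8.72 CPM at 6M, and in NOD.H-2b from 15.2 to 16.5, from 21.4 to 26.4 and from 21.4 to 30.6 CPM. Psme2 ranged from 7.6 to 11.4 CPM over the 9 BALB/c mice and from 16.9 to 30 CPM over the 9 NOD.H-2b mice. The strain difference of Psme1 grew from 2.34-fold at 2M (log2 1.23 ± 0.078 SE, adjusted p = 4.29e-07) to 3.34-fold at 6M (1.74 ± 0.14, adjusted p = 4.75e-06). That of Psme2 was 2.26-fold at 2M (1.18 ± 0.095, adjusted p = 2.8e-06) and 3.19-fold at 6M (1.67 ± 0.13, adjusted p = 4.63e-06). No difference was shown in the ratio of the 2 genes: Psme1 over Psme2 differed between the strains by 0.04 on the log2 scale (exact permutation p = 0.363, adjusted p = 0.363), by 0.05 at 2M, 0.01 at 4M and 0.07 at 6M. Psme2b, a near copy of Psme2, was at 0.105 CPM or less in each mouse.

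Tap1 and Tap2 form one transporter but did not differ between the strains to the same degree. Tap1 was at 4.32, 5.21 and 3.63 CPM in BALB/c at 2M, at 8.97, 5.81 and 9.83 CPM at 4M and at 6.34, 6.39 and 4.77 CPM at 6M. In NOD.H-2b it was at 25, 44.7 and 32 CPM at 2M, at 81.4, 55.2 and 68.6 CPM at 4M and at 83.9, 53.9 and 81.1 CPM at 6M. The strains were separate throughout, with a difference of 7.98-fold at 2M (log2 3.00 ± 0.29 SE, adjusted p = 0.000836), 8.34-fold at 4M (3.06 ± 0.25, adjusted p = 0.000243) and 12.7-fold at 6M (3.67 ± 0.20, adjusted p = 3.26e-06). Tap2 ranged from 3.56 to 7.74 CPM in the 9 BALB/c mice and from 16.1 to 39.1 CPM in the 9 NOD.H-2b mice. The strain difference of Tap2 was 4.64-fold at 2M (log2 2.21 ± 0.14 SE, adjusted p = 2.03e-06), 4.31-fold at 4M and 6.69-fold at 6M (2.74 ± 0.13, adjusted p = 2.45e-07). Per kb, Tap1 over Tap2 was 0.62 to 0.876 in the BALB/c mice and 1.07 to 1.65 in the NOD.H-2b mice, without overlap. This ratio was 1.85-fold higher in NOD.H-2b (exact permutation p = 0.00025, the smallest possible, adjusted p = 0.000313).

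Tapbp, which bridges TAP and the empty class I molecule, ranged from 25.3 to 35.8 CPM in BALB/c and from 65 to 102 CPM in NOD.H-2b. Its difference was the steadiest of the 10 over age, at 2.77-fold at 2M (log2 1.47 ± 0.084 SE, adjusted p = 7.19e-07), 2.7-fold at 4M (1.43 ± 0.089, adjusted p = 3.25e-06) and 2.98-fold at 6M (1.57 ± 0.095, adjusted p = 9.29e-07). B2m was by far the most abundant member, with a group mean between 228 and 592.8 CPM per kb, and the next, Tapbp, had between 7.52 and 25.4. In CPM, B2m was at 218, 230 and 213 in BALB/c at 2M, at 160, 229 and 199 at 4M and at 219, 224 and 171 at 6M. The NOD.H-2b mice had 346, 441 and 462 CPM at 2M, 486, 438 and 521 CPM at 4M and 569, 440 and 520 CPM at 6M. B2m therefore differed least of the 10, but without overlap: 1.95-fold at 2M (log2 0.96 ± 0.11 SE, adjusted p = 0.000424), 2.47-fold at 4M (1.30 ± 0.13, adjusted p = 0.000105) and 2.55-fold at 6M (1.35 ± 0.13, adjusted p = 2.06e-05).

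Nlrc5 had the largest fold change of the members at each age. In BALB/c it stood at 1.51, 2.33 and 1.08 CPM at 2M, at 2.71, 2.48 and 7.99 CPM at 4M and at 2.81, 2.62 and 0.935 CPM at 6M. In NOD.H-2b it stood at 20.3, 43.1 and 31.8 CPM at 2M, at 96.2, 58.5 and 86 CPM at 4M and at 104, 67.4 and 97.8 CPM at 6M. BALB/c mouse 3 at 4M was again the highest control, and still the lowest NOD.H-2b mouse stood 2.54 times above it. The difference was 20-fold at 2M (log2 4.32 ± 0.46 SE, adjusted p = 0.00196), 18-fold at 4M (4.17 ± 0.59, adjusted p = 0.00502) and 41.5-fold at 6M (5.38 ± 0.42, adjusted p = 0.000201), and its standard errors were the widest of the 10.

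**Figure D3:**
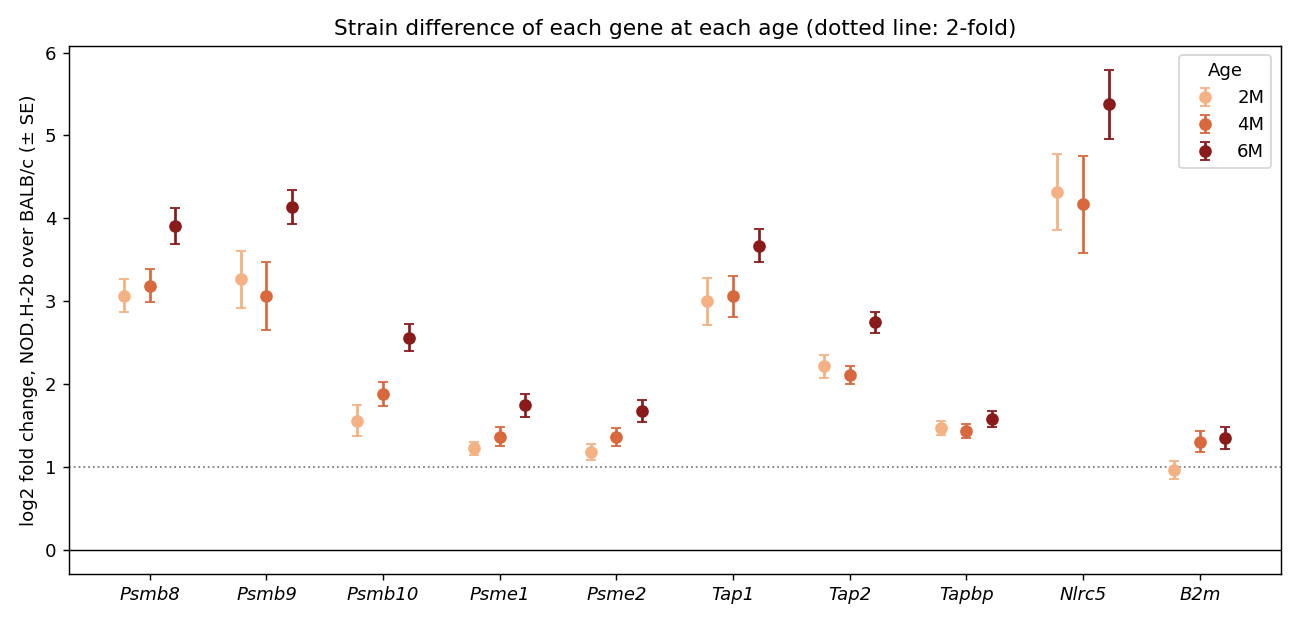
The log2 fold change of NOD.H-2b over BALB/c for each gene at 2M, 4M and 6M, with bars of 1 SE and a dotted line at 2-fold. Only B2m at 2M (0.96) lies under the line, and Nlrc5 is the highest at each age.

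The genes inside and outside the H2 region were then set side by side. The 5 members on chromosome 17 had a median log2 fold change of 3.00 at 2M, 3.06 at 4M and 3.67 at 6M, and the 5 elsewhere had 1.23, 1.36 and 1.74. The ranges overlapped, since Nlrc5, on chromosome 8, was the highest of all and Tapbp, on chromosome 17, stood at 1.47, 1.43 and 1.57. Between Tapbp and Tap2 the annotation places 18 other protein-coding genes, a set listed after the members' values were seen. All 18 were tested at 2M and 6M, and 17 at 4M, without H2-Ke6. Of those tested, 5, 8 and 8 were higher and 4, 4 and 5 lower at 2M, 4M and 6M (adjusted p). Their medians were 0.18, 0.08 and 0.43, and 22.5%, 23.4% and 28.6% of all genes were higher and 17.2%, 19.2% and 25.8% lower. The 6 named H2-, of which 5 were tested at 4M, held most of the higher ones (4, 5 and 5, and none lower). H2-DMa, a chain of the class II peptide editor, differed by 1.82 ± 0.20 SE at 2M (adjusted p = 4.09e-05). Of the 12 that are not named H2-, 1 was higher and 4 were lower at 2M, 3 and 4 at 4M and 3 and 5 at 6M (adjusted p), with medians of -0.03, -0.07 and -0.18. Brd2, a chromatin reader, differed by -0.12 ± 0.08 SE at 6M (adjusted p = 0.249) and Ring1, a Polycomb protein, by -0.58 ± 0.10 (adjusted p = 0.000671). Rps18 was higher at each age, by 0.67 ± 0.05 SE at 2M, 1.05 ± 0.065 at 4M and 0.98 ± 0.071 at 6M (adjusted p = 1.71e-06, 3.25e-06 and 2.69e-06). The effect of the H2d or H2b haplotype on the alignment of reads was not tested.

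The order of the 6 groups was much alike over the members. For each, the 3 BALB/c groups came first and the 3 NOD.H-2b groups last. Within NOD.H-2b the 2M group was the lowest for all 10, and the 4M and 6M groups overlapped for all 10, while 2M also overlapped its neighbour for Psme2 and B2m. Within BALB/c the 4M group was the highest for 9 members, and B2m alone had its highest mean at 2M.

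Within NOD.H-2b the ages were compared next. From 2M to 4M 6 members rose at an adjusted p under 0.05 (10.3% of 17763 genes did), and 2 of them, Psmb8 (2.19-fold, log2 1.13 ± 0.19 SE, adjusted p = 0.0148) and Psmb9 (2.46-fold, 1.30 ± 0.32, adjusted p = 0.0469), by at least 2-fold (5.97% of genes). The other 4 were Psmb10, Psme1, Psme2 and Tap2. Without mouse 3 of 2M the 6 became 1. The 2 became 1 without mouse 1 of 2M or mouse 3 of 4M, 0 without mouse 3 of 2M or mouse 1 of 4M, and 5 without mouse 2 of 2M. From 4M to 6M the members changed by between -0.01 and 0.21 on the log2 scale. None passed in edgeR or in DESeq2, where 0.00555% of 18026 genes were higher, nor at an unadjusted p under 0.05, where 6.63% were. Over the whole span from 2M to 6M 9 members rose (20.7% of 18008 genes), with B2m, at 1.21-fold (log2 0.27 ± 0.14 SE, adjusted p = 0.146), left out.

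Of these 9, 4 rose by at least 2-fold between 2M and 6M in NOD.H-2b, against 10.9% of genes: Nlrc5 (2.78-fold), Psmb9 (2.63-fold), Psmb8 (2.39-fold) and Tap1 (2.12-fold), with adjusted p of 0.0245, 0.0265, 0.00694 and 0.0334. The 9 became 4 without mouse 3 of 2M, mouse 1 of 6M or mouse 3 of 6M. The 4 became 2 without the first of these and 1 without either of the others.

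In BALB/c the members changed by between -0.16 and 1.47 on the log2 scale from 2M to 4M, against 0.21 to 1.34 in NOD.H-2b, and by between -0.11 and 0.53 from 2M to 6M, against 0.27 to 1.48. From 2M to 4M 6 members rose at an adjusted p under 0.05 (6.1% of 16639 genes), namely Psmb8, Psmb9, Psme1, Tap1, Tap2 and Tapbp, and Psmb9 did so by 2.76-fold (log2 1.47 ± 0.38 SE, adjusted p = 0.0383), the 1 past 2-fold (2.07% of genes). This rested on single mice: without mouse 3 of 4M, the mouse with the high Psmb9 and Nlrc5, the 6 became 3 and the 1 became 0. The 6 became 3, 2 and 1 without mouse 1, 2 or 3 of 2M, the 1 became 0 without mouse 3 of 2M, and it became 3 without mouse 2 of 4M. That mouse 3 of 4M also had the most leukocyte marker RNA of the 9 BALB/c mice (52.1 CPM over 5 genes, the others 16.2 to 32.3), and the part of this in the result was not tested. From 4M to 6M none was higher in edgeR or DESeq2 at an adjusted p (0.174% of 16622 genes were, and 0.018% with 2-fold), nor at an unadjusted p under 0.05 (7.89%). The estimates ran from -1.05 to 0.05 and 9 of the 10 were below 0. At an unadjusted p under 0.05, 6 members were lower (7.65% of genes), but none was at an adjusted p in edgeR (0.132% of genes) or DESeq2, the lowest being that of Psmb10 (0.138). Between 2M and 6M none passed in edgeR or DESeq2 (3.48% of 16579 genes did, and 1.57% with 2-fold), and 3 were higher at an unadjusted p under 0.05 (11.5% of genes); without mouse 3 of 6M 2 passed at any fold.

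Whether the strain difference itself grew was tested as the change of that difference from 2M to 6M in 1 fit of all 18 mice. It grew for 2 members, Psmb10 by 1.01 ± 0.25 SE on the log2 scale (adjusted p = 0.0121) and Psme1 by 0.52 ± 0.17 (adjusted p = 0.0414), where 7.04% of 19117 genes did. The estimate was above 0 for all 10, and for Psme2 (0.50 ± 0.18, adjusted p = 0.0563), Tap2 (0.54 ± 0.19, adjusted p = 0.062) and Psmb8 (0.85 ± 0.35, adjusted p = 0.108) it missed the threshold. Nlrc5 had the largest estimate with the largest error (1.07 ± 0.73, adjusted p = 0.35) and Tapbp the smallest (0.11 ± 0.13, adjusted p = 0.606). Psmb10 passed whichever of the 18 mice was left out, and Psme1 in 5 of the 18 cases, with adjusted p up to 0.13 in the other 13.

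The wider pathway was described from lists written by hand, as counts at an adjusted p under 0.05. At this threshold 22.5%, 23.4% and 28.6% of all genes were higher in NOD.H-2b at 2M, 4M and 6M, and 17.2%, 19.2% and 25.8% were lower. Of 11 structural subunits of the 20S core none was higher in NOD.H-2b at any age, by an adjusted or an unadjusted p in edgeR, and 1, 0 and 6 were lower at 2M, 4M and 6M. Of 18 subunits of the 19S regulator, the cap that feeds ubiquitin-tagged proteins in, 0, 1 and 0 were higher and 7, 7 and 17 lower, such as Psmc2, an ATPase of its base (log2 -0.61 ± 0.08 SE at 6M, adjusted p = 0.000162). Of 8 other activators and assembly factors tested 1, 0 and 0 were higher and 1, 0 and 2 lower. The median of the 19S list was -0.13, -0.19 and -0.41 and that of the 20S list -0.003, -0.08 and -0.21, against 0.01, 0 and -0.004 for all genes.

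Of 8 further genes of the loading complex and the endoplasmic reticulum, 3, 2 and 2 were higher and 1, 4 and 6 lower. Erap1, which trims peptides in the reticulum, was 1.97-fold higher at 2M (log2 0.98 ± 0.099 SE, adjusted p = 2.58e-05) and 2.4-fold at 6M (1.27 ± 0.083, adjusted p = 1.45e-06), and Tapbpl, a tapasin-like peptide editor, 1.55-fold and 1.91-fold. Sec61a1, the protein channel into the reticulum, was lower at each age (-0.59 ± 0.10 at 6M, adjusted p = 0.000868), and Pdia3 and Calr, chaperones that also serve secretion, were at -0.58 ± 0.10 and -0.52 ± 0.15 at 6M (adjusted p = 0.000658 and 0.0129). Of 5 cytosolic peptidases tested none was higher (1, 0 and 0 at an unadjusted p under 0.05) and 1 was lower at each age.

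Of 15 genes for the transcription of class I genes 9, 10 and 12 were higher and none lower (1, 0 and 0 at an unadjusted p under 0.05). Ciita, the class II counterpart of Nlrc5, was 4.55-fold, 10.3-fold and 21.1-fold higher at 2M, 4M and 6M (adjusted p = 0.0104, 0.00641 and 3.41e-05). Irf1, an interferon-induced transcription factor, was 2.21-fold higher at 2M (1.15 ± 0.19, adjusted p = 0.00406) and 3.34-fold at 6M. Ifng, the gene of interferon gamma, was at or under 0.0203 CPM in each BALB/c mouse and between 0.0927 and 0.491 CPM in the NOD.H-2b mice of 4M and 6M. At 2M the NOD.H-2b mice had 2, 7 and 0 counts of it (0.0328, 0.107 and 0 CPM). No BALB/c mouse had more than 1 count, so no fold is given.

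Among the 7 partners that bind B2m, 5, 6 and 6 were higher and 0, 1 and 0 lower. H2-K1, a classical class I heavy chain, was 6.43-fold higher at 2M and 8.62-fold at 6M (adjusted p = 0.000278 and 2.18e-07). H2-D1, another, was 2.69-fold and 3.06-fold higher (adjusted p = 1.01e-05 and 1.01e-06). H2-M3, which presents formylated peptides, was 4.46-fold and 8.69-fold higher (adjusted p = 8.82e-05 and 2.35e-06). Class I genes differ in sequence between H2d and H2b and resemble each other, so their counts are uncertain.

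The cells of the gland were read from marker lists in the same mice. In bulk tissue, fewer cells of a type and less RNA per cell cannot be told apart. Epcam, an epithelial surface protein, was at 84.3 to 116 CPM in the 18 mice. It was higher in NOD.H-2b at 2M (log2 0.41 ± 0.04 SE, adjusted p = 2.19e-05). At 4M and 6M its estimates were -0.18 ± 0.08 and -0.17 ± 0.08 (adjusted p = 0.0928 and 0.084). Aqp5, the water channel of acinar cells, was at 83.3 to 152 CPM, and lower in NOD.H-2b at 6M (log2 -0.35 ± 0.11 SE, adjusted p = 0.0263). The 6 acinar secretory markers summed to less in NOD.H-2b without overlap at each age. At 2M the sums were 71510 to 72580 CPM against 93420 to 102100 in BALB/c. They were 73840 to 93620 against 101800 to 117600 at 4M and 53580 to 77740 against 125700 to 138500 at 6M. The single genes did not all follow the sum. Of the 6, 0, 1 and 1 were higher and 3, 2 and 3 lower at 2M, 4M and 6M (adjusted p). Of all genes, 22.5%, 23.4% and 28.6% were higher and 17.2%, 19.2% and 25.8% lower. Scgb2b17 was the higher one, by log2 2.97 ± 0.56 SE at 4M and 3.11 ± 0.45 at 6M (adjusted p = 0.011 and 0.00222). The 5 leukocyte markers summed to between 16.2 and 52.1 CPM in BALB/c, and in the NOD.H-2b mice to 78.5, 181 and 131 CPM at 2M, 550, 341 and 325 CPM at 4M and 649, 396 and 504 CPM at 6M. The NOD.H-2b median exceeded the BALB/c median 7.3-fold at 2M, 11.8-fold at 4M and 19.9-fold at 6M, and 2.6-fold higher at 4M than at 2M within NOD.H-2b, where the members differed by 1.16-fold to 2.53-fold. Ptprc, the common leukocyte antigen, was at 6.37 to 23.7 CPM in BALB/c and at 36.4 to 365 CPM in NOD.H-2b. The 6 B cell markers stayed at a sum of 1.73 CPM or less in BALB/c, whereas those of NOD.H-2b summed to 0.771 to 23.9 CPM at 2M, 115 to 257 CPM at 4M and 184 to 363 CPM at 6M. The 7 T cell markers summed to at most 4.41 CPM in BALB/c and to between 7.55 and 95.9 CPM in NOD.H-2b, and the 7 macrophage markers to 43.2 to 128 CPM and 185 to 422 CPM. The 6 dendritic cell markers summed to 2.28 to 7.05 CPM and 8.51 to 39.4 CPM, whereas the 8 epithelial markers, which at 2M summed to 842 to 849 CPM in BALB/c and 920 to 1062 CPM in NOD.H-2b, were at 838 to 885 and 596 to 715 CPM at 6M. The part of these cells in the members' strain difference was not tested.

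**Figure D4:**
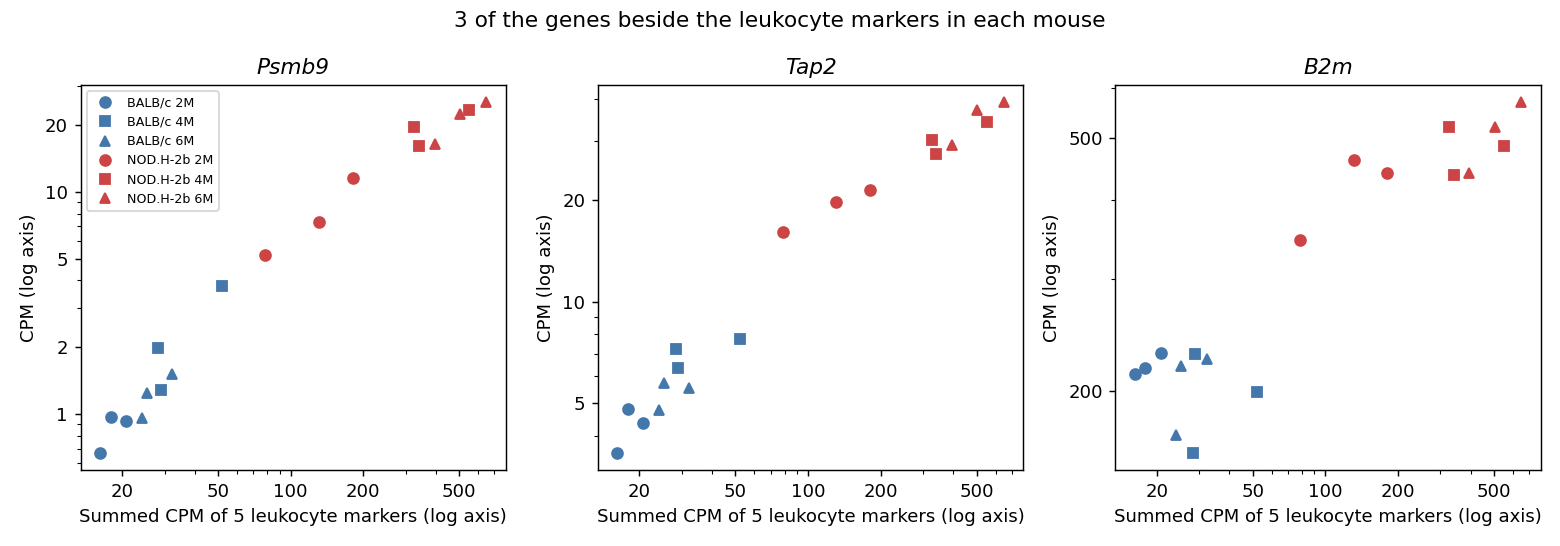
CPM of Psmb9, Tap2 and B2m against the summed CPM of 5 leukocyte markers in each of the 18 mice (both axes log), with BALB/c blue, NOD.H-2b red and the shape giving the age. The NOD.H-2b mice lie to the right of and above the BALB/c mice in each panel, with B2m at 160 to 230 CPM in BALB/c and at 346 to 569 CPM in NOD.H-2b.

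In each NOD.H-2b group 1 mouse was the lowest for all 10 members. In BALB/c mice 1, 2 and 3 were the lowest for 1, 1 and 8 members at 2M, for 4, 5 and 1 at 4M and for 1, 0 and 9 at 6M. Mouse 1 was the lowest of NOD.H-2b at 2M for all 10 members, and it had the lowest leukocyte sum of the 3. Its B cell markers summed to 0.771 CPM, whereas mice 2 and 3 had sums of 23.9 and 9.37 CPM. That was above the 0.0353 to 0.341 CPM of BALB/c at 2M and within the 0.665 to 1.73 CPM of BALB/c at 4M and 6M. The T cell, macrophage and leukocyte sums of mouse 1 (7.55, 185 and 78.5 CPM) exceeded those of every BALB/c mouse (at most 4.41, 128 and 52.1 CPM). Psmb8 in mouse 1 stood at 10.3 CPM, 2.7 times the highest BALB/c mouse. At 6M mouse 1 of NOD.H-2b was the highest and mouse 2 the lowest for all 10, in the order of their leukocyte sums. At 4M mouse 2 was the lowest for all 10 while mouse 3 had the lowest leukocyte sum.

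Genes outside the 10 were ranked by how closely their 6 group means of log2 CPM, each centred on its own mean, followed the mean pattern of the members. Among 7921 genes the nearest were Myo1f, an unconventional myosin of leukocytes (root mean square difference 0.091 on the log2 scale over 6 groups), Cxcl16, a chemokine (0.109), Cybb, the NADPH oxidase subunit of phagocytes (0.113), Gm20559 (0.137) and Cotl1, an actin-binding protein (0.138). Among the members themselves Tap2 was the nearest to the mean pattern (0.077), and Nlrc5 (1.16), with the steepest differences, and B2m (0.69), with the flattest, were the farthest. The likeness is a description over 6 group means that share the same 18 libraries.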

How the data were processed

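Bulk RNA-seq libraries, 1 per mouse, were made from whole LGs of 18 males. The authors deposited raw counts per gene, from paired-end reads of rRNA-depleted RNA that they trimmed (cutadapt), aligned to GRCm38 (STAR) and counted (HTSeq). The strand setting, the annotation release and the handling of multi-mapped reads are not given in the sources used here. A deposited table of normalized log2 values of the same counts was not used.

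Computed here with R 4.3.3, edgeR 4.0.16 and DESeq2 1.42.0: TMM factors, filterByExpr, edgeR's robust quasi-likelihood test on the 6 mice of a comparison (18 for the change of the strain difference), and Benjamini-Hochberg adjustment over all genes tested. The SE is the log2 fold change over the root of its F statistic. Upregulated means an FDR under 0.05 and at least 2-fold, unless an adjusted p alone is named. Ratios used counts plus 1 per kb of merged GENCODE M21 exons and an exact permutation test. The spread between mice exceeded counting error (chi-square per gene 16.4 to 83.4), so 3 mice per group set the precision. Both tests were run on simulated data first. Same-numbered mice of the 2 strains at the same age deviated together with r between -0.062 and 0.124, so no pairing between strains was seen. Pairing of same-numbered mice across ages was not tested.

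All 10 members are reported. From the other lists, up to 3 genes with the largest mean change among those that passed at every age are named. Calr, Pdia3, Brd2, Ring1, Rps18 and Scgb2b17 were named after their values were seen. Members and lists were chosen with earlier results of these data known. Alternatives were other normalizations, other filters, DESeq2, 1 fit of 18 mice, the replicate number as a block, other added counts, no length scaling, and each mouse left out.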

Additional observations from a re-analysis of the deposited data

Results flagged for a closer look

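The strain difference of 2 genes was larger at 6M than at 2M by a test of the change itself. For Psmb10 the difference grew by 1.01 on the log2 scale (SE 0.25, adjusted p = 0.0121 in edgeR), from 2.94-fold to 5.88-fold, and it passed in each of 18 fits with 1 mouse left out (adjusted p 0.00359 to 0.0429). For Psme1 it grew by 0.52 (SE 0.17, adjusted p = 0.0414), from 2.34-fold to 3.34-fold, and it passed in 5 of the 18 fits (adjusted p 0.00693 to 0.13).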

How the results depend on the processing

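Under every alternative tried, the counts of members higher in NOD.H-2b stayed at 9 or 10 at 2M and at 10 at 4M and 6M, and the 5 ratios stayed on their side of the threshold. The counts over age moved. Of members at least 2-fold higher at 4M than 2M, BALB/c had 1, but 0 with the replicate block or in 1 fit of all 18 mice, and 0 to 3 with 1 mouse left out. NOD.H-2b had 2, but 1 with no filter on low counts, 0 with the replicate block, 4 in 1 fit of all 18 mice, and 0 to 5 with 1 mouse left out. From 2M to 6M NOD.H-2b had 4, but 1 with no filter, 1 with the replicate block, and 1 to 4 with 1 mouse left out. Members with a growing strain difference numbered 2, but 4 with at least 10 counts in every sample, 5 with DESeq2, and 1 to 5 with 1 mouse left out. At any fold, chosen after seeing the data, the block turned 6 of NOD.H-2b into 0 from 2M to 4M and 9 into 4 from 2M to 6M, and the fit of 18 mice turned 6 of BALB/c into 2. The block moved no other count by over 1.5 times. The causes were not tested. Other scalings moved the median of all genes by at most 0.036 on the log2 scale. Depth did not limit the members, the lowest of which had 38 counts.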
